A study of Mus musculus with 18 samples.

Results

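Joins of a RAG-cut coding end to the immunoglobulin heavy chain locus (Igh), the lambda light chain locus (Igl) and the T cell receptor loci were taken from 12 HTGTS libraries of mouse B cell lines. A join was counted where its prey position on mm10 lay inside Igh (chr12:113254830-116010093), Igl (chr16:19061618-19260859), Tcra/Tcrd (chr14:52427928-54224206), Tcrb (chr6:40891229-41558452) or Tcrg (chr13:19178024-19352756), and where the prey read held fewer than 3 telomere hexamers. This gave 207 joins of 30937 junctions, with 127 in Igh, 46 in Igl, 24 in Tcrg, 7 in Tcra/Tcrd and 3 in Tcrb. The rule used position and prey sequence only, and not genotype, segment, strand or join structure.

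The cells were v-abl-transformed B cells of strain 129, which are B cell precursors immortalised by a viral Abl kinase, and all groups carried an integrated pMX-INV substrate with a pair of recombination signals. HTGTS (high-throughput genome-wide translocation sequencing) reads from a bait primer beside 1 substrate break into the partner of the join, called the prey. The genotypes were CtIP A/A DNA-PKcs −/−, called the double mutant below, DNA-PKcs −/−, CtIP A/A and wild type. Each had 2 libraries held in G2 (STI571 at 3 µM for 24 h, then the CDK1 inhibitor RO3306 at 10 µM for 48 h) and 1 held in G1 (STI571 at 3 µM for 48 or 72 h). CtIP promotes resection of DNA ends, and DNA-PKcs is the kinase of classical end joining that works with the nuclease Artemis to open hairpin-sealed coding ends. The labels name no separate cultures or clones, so genotype cannot be told apart from cell line, and p-values measure only the spread between these libraries, which may be technical.

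RAG cuts V, D and J segments at a recombination signal, which is a heptamer beside the segment, a spacer of about 12 or 23 bp, and a nonamer. The cut leaves a hairpin-sealed coding end on the segment and a blunt signal end on the heptamer, and RAG pairs a signal with the short spacer with one that has the long spacer. In developing B cells Igh is rearranged first and the light chain loci Igk and Igl later, and the T cell receptor loci are the substrates of T cell precursors. Read consensus placed the bait heptamer at substrate positions 1936 to 1942 with a spacer of 12 bp, so the bait was the coding end of a signal with the short spacer.

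The signals of the segments that took most joins are shown first, because the positions below are counted from the annotated borders beside them. The sequences are from the mm10 reference, on the strand of each gene and 5′ to 3′, with heptamer and nonamer in capitals and 20 coding bases in lower case. V segments read from the coding end into heptamer, spacer and nonamer, and J segments read from nonamer to coding end. Ighv1-54 (chr12:115193637-115193694), Ighv8-7 (chr12:115258093-115258151), Ighv1-11 (chr12:114612205-114612262) and Ighj4 (chr12:113428548-113428605) lie in Igh on the minus strand. Iglv1 (chr16:19084978-19085036) and Iglj3 (chr16:19067059-19067106) lie in Igl and Trgj2 (chr13:19311285-19311332) in Tcrg, also on the minus strand. Spacers measured 22 bp at Ighv1-54, Ighv1-11 and Ighj4, 23 bp at Ighv8-7 and Iglv1, and 12 bp at Iglj3 and Trgj2.
Ighv1-54: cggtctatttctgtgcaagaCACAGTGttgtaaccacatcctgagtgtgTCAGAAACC
Ighv8-7: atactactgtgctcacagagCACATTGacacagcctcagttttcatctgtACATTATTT
Ighv1-11: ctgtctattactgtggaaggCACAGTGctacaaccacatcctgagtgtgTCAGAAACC
Iglv1: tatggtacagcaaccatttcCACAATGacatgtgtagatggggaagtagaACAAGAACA
Ighj4: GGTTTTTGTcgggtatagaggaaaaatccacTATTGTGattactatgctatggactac
Iglj3: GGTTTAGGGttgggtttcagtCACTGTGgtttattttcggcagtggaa
Trgj2: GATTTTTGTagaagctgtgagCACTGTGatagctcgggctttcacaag

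Summed over libraries most joins lay at segment borders, mostly J and V borders without DNA-PKcs and V borders with it. Within 50 bp of an annotated V, D or J border lay 160 of the 207 joins (77.3%), namely 71 of 111 (63.96%) in the 6 DNA-PKcs −/− libraries and 89 of 96 (92.7%) in the 6 libraries with DNA-PKcs. In the DNA-PKcs −/− libraries the border joins were spread over 19 at V, 6 at D and 46 at J segments. In the libraries with DNA-PKcs they were 84 at V, 1 at D and 4 at J segments. All 4 of those J joins were on the signal side of Igl J segments in wild-type G1, including a pair at chr16:19067087 that may be copies. By library, border joins were 2 of 4 and 24 of 27 in double mutant G2 and 35 of 54 in G1. In DNA-PKcs −/− they were 1 of 5 and 0 of 6 in G2 and 9 of 15 in G1. CtIP A/A had 5 of 5 and 1 of 2 in G2 and 10 of 11 in G1. Wild type had 8 of 8 in G2 replicate 1 and 65 of 70 in G1. The sums therefore rest mainly on the double mutant without DNA-PKcs and on wild-type G1 with it.

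A two-sided exact permutation of library labels within strata of CtIP genotype and phase gave a difference in border share of -28.7 percentage points, at p = 0.0833 and adjusted p = 0.188 over 3 structure measures. The share of border joins at V segments was 26.8% without DNA-PKcs and 94.4% with it (p = 0.0278 in the same exact test). On the signal side lay 24 of 71 border joins (33.8%) without DNA-PKcs and 6 of 89 (6.74%) with it (exact p = 0.0417). These last 2 are among 6 measures added after the data were seen, and over those 6 their adjusted exact p values were 0.0556 and 0.0625, so neither passed the threshold of 0.05. Within run 1 the V share differed by -66.7 percentage points, and within run 2 it differed by -67.0 percentage points. The run 1 value rests on few border joins, 2 and 1 in the libraries without DNA-PKcs and 5 and 8 in those with it.

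**Figure D1:**
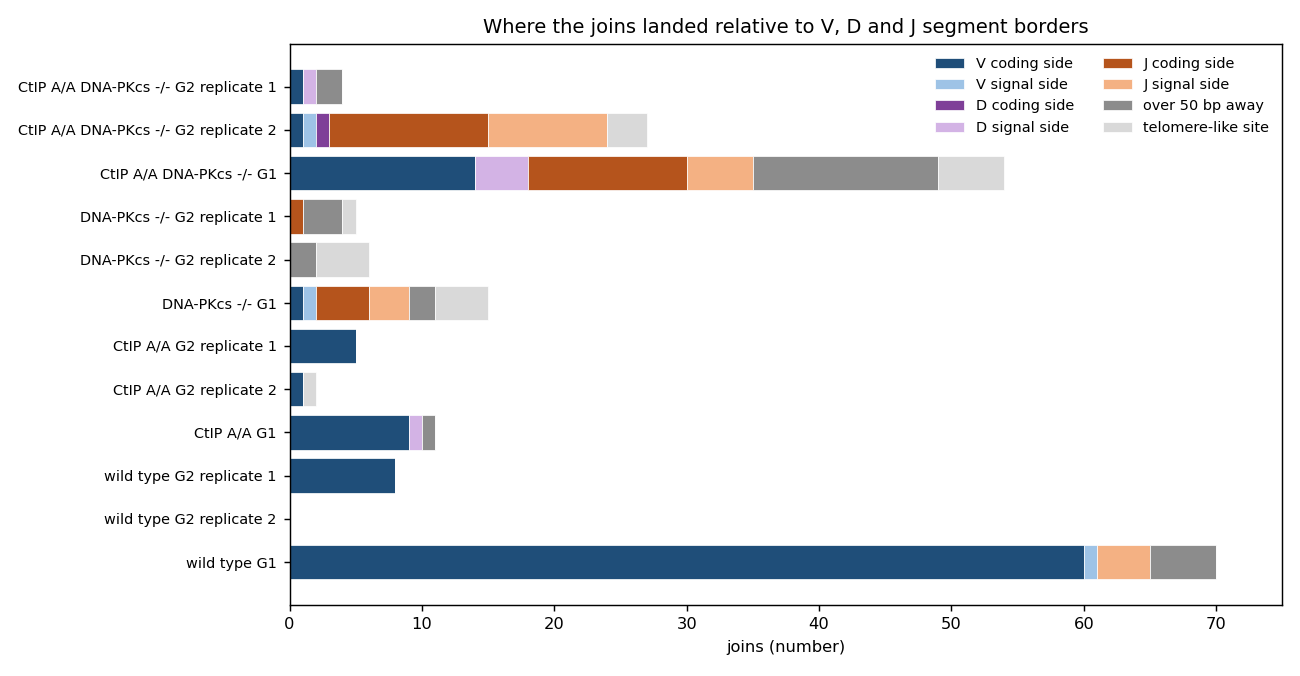
Joins per library (horizontal axis, number of joins) by the nearest segment border within 50 bp and by side, with joins over 50 bp away and joins at telomere-like sites in grey. The double mutant G1 library held 14 V coding, 12 J coding and 5 J signal joins, and wild-type G1 held 60 V coding and 0 J coding joins.

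Coding-side joins lay close to the border in the libraries with DNA-PKcs, and the joins further inside were mostly those of the double mutant. With DNA-PKcs, 76 of 83 coding-side border joins (91.6%) lay within 5 bp of the border, and their median distance was 0 bp. Without it, 14 of 47 (29.8%) lay that close (exact p = 0.0556, adjusted p = 0.0667, not past the threshold). Over the V coding joins alone the median was 13 bp into the segment in 17 joins without DNA-PKcs, from 0 to 45 bp, against 0 bp in 83 joins with it, from -9 to 19 bp. Double mutant G1 held 14 of those 17 V joins, the other double mutant libraries and DNA-PKcs −/− G1 held 1 each, and both DNA-PKcs −/− G2 libraries held 0, so the V distances without DNA-PKcs are in the main those of 1 library. The 29 J coding joins without DNA-PKcs had a median of 11 bp, and 11 of them lay within 5 bp. Of these J joins, 12 were in double mutant G2 replicate 2, 12 in double mutant G1, 1 in DNA-PKcs −/− G2 replicate 1 and 4 in DNA-PKcs −/− G1.

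The spacer class of the partner signals also differed in counts. All 83 coding-side border joins with DNA-PKcs were at segments whose signal has the long spacer, the class that pairs with the bait's signal. All 83 were V joins, and most V signals that the scan found have that spacer. It found 141 long and 4 short at Igh V borders, and 127 long and 5 short at Tcra/Tcrd V borders. The count of 83 is therefore not separate from the V share given above. Without DNA-PKcs 31 of 47 (66.0%) were at such segments and 16 at segments with the short spacer, which were Igl and Tcrg J segments and 1 D segment. The difference gave exact p = 0.0833, also after adjustment. On the signal side, 17 of 24 joins without DNA-PKcs and 5 of 6 with it were at signals with the short spacer.

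**Figure D2:**
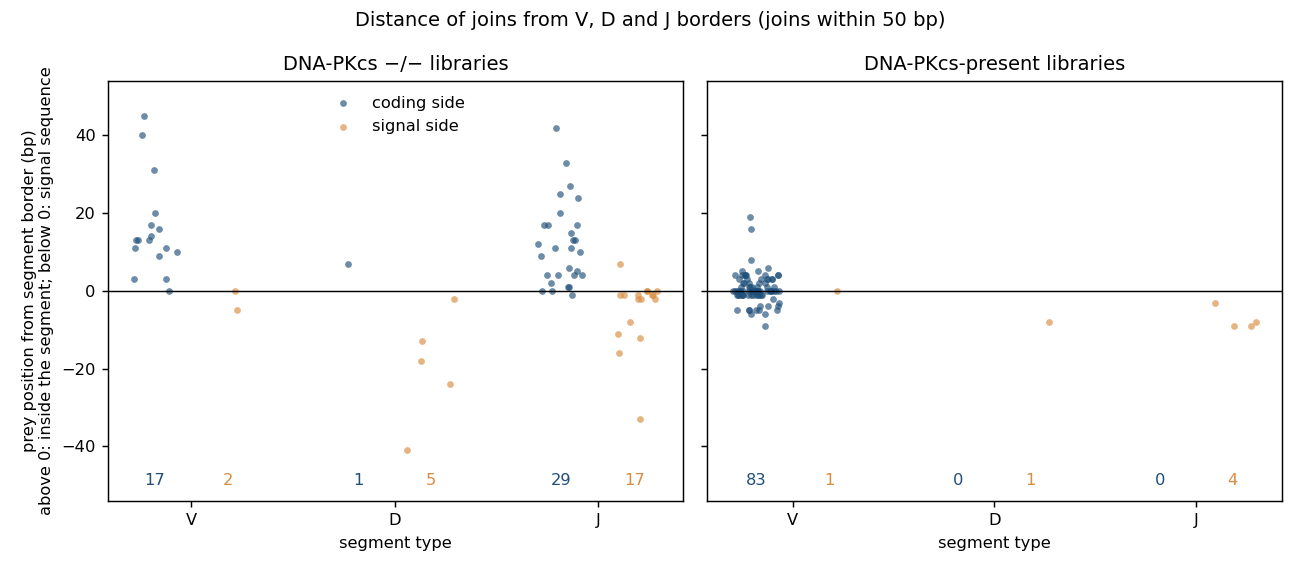
Distance of each join within 50 bp from the annotated segment border (vertical axis, bp) for V, D and J segments, in DNA-PKcs −/− libraries (left) and DNA-PKcs-present libraries (right). Above 0 is inside the annotated segment. Below 0 is outside it, in the signal where the heptamer starts at the border. At Ighv8-7 and Ighv8-4 the best heptamer lies 4 and 7 bp beyond the border, so some joins below 0 there lie before it. The numbers along the bottom count the joins per column, with 17 V coding and 29 J coding joins on the left and 83 and 0 on the right.

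The bait end was also shortened more without DNA-PKcs. Over 20 bp of the bait coding end was lost in 63 of 111 joins (56.8%) without DNA-PKcs and in 3 of 96 (3.13%) with it, a difference of 53.6 percentage points (exact p = 0.0139, the smallest the design allows, adjusted p = 0.0417 over the 6 added measures). The median loss was 25 bp without DNA-PKcs and 1 bp with it. Among coding-side border joins with DNA-PKcs the largest bait loss was 4 bp. The double mutant libraries had median losses of 18 and 19 bp in G2 and 26.5 bp in G1, and DNA-PKcs −/− libraries 37 and 19.5 bp in G2 and 81 bp in G1. CtIP A/A libraries had medians of 2 and 28 bp in G2, the second over 2 joins, and 4 bp in G1. Wild-type libraries had medians of 0 bp in the first G2 library and 1 bp in G1. Except for the CtIP A/A library with 2 joins, each library with DNA-PKcs had a lower median than each library without it.

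The adjusted p of bait loss did not hold for every library left out. Nor did it hold with the G2 replicate number, which goes with the sequencing run, as a block (adjusted exact p = 0.075). With that block the difference was again 53.6 percentage points, and its exact p of 0.0313 was the smallest the block allows. The block therefore cannot tell a dependence on run from a loss of resolution. Leaving out the G1 library of any of the 4 genotypes, either DNA-PKcs −/− G2 library or double mutant G2 replicate 2 put the adjusted exact p between 0.0556 and 0.133. Without a G1 library its stratum drops out, and the smallest exact p is then 0.0278. The difference lay between 44.4 and 57.6 percentage points over all libraries left out in turn. Run 1 alone gave 55.6% without DNA-PKcs and 0% with it, and run 2 alone gave 56.9% without DNA-PKcs and 3.61% with it. In run 1 the libraries without DNA-PKcs held only 4 and 5 joins and those with it 5 and 8.

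Compared with other genome joins of the same library, outside all 6 antigen receptor loci, these joins lost less bait end, mainly with DNA-PKcs. In 9 libraries with 5 or more such joins the share with over 20 bp lost averaged 34.1% ± 32.2 for these joins and 60.5% ± 16.4 for the others (SD, n = 9), and it was lower in 9 of 9 (two-sided exact sign-flip permutation p = 0.00391, adjusted p = 0.0117 over 3 measures). The gap was large in the libraries with DNA-PKcs, with 0% against 76.0% in CtIP A/A G2 replicate 1, 9.09% against 40.0% in CtIP A/A G1, 0% against 59.8% in wild-type G2 replicate 1 and 1.43% against 42.2% in wild-type G1. Without DNA-PKcs it was 44.4% against 50.5% in double mutant G2 replicate 2 and 55.6% against 61.1% in double mutant G1. It was 60% against 76.0% in DNA-PKcs −/− G2 replicate 1, 50% against 51.1% in G2 replicate 2 and 86.7% against 87.4% in G1. With prey alignments of 30 bp or more and the column uncut at 0 required, the difference was -30.9 percentage points and did not pass (exact sign-flip p = 0.0313, adjusted p = 0.0938). Fewer libraries then held 5 or more such joins, so the smallest p possible was higher than over 9 libraries.

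**Figure D3:**
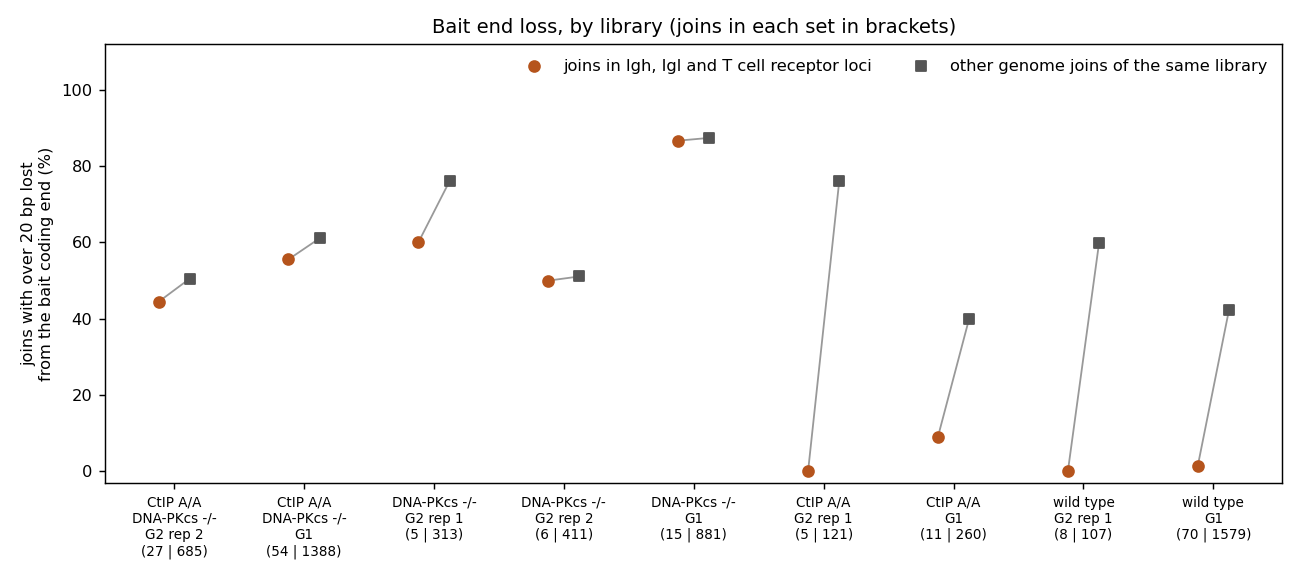
Share of joins that lost over 20 bp of the bait coding end (vertical axis, percent) in each library with 5 or more joins into the 5 loci, for these joins (circles) and the other genome joins of the same library (squares). The circle lies below the square in all 9 libraries, at 86.7% against 87.4% in DNA-PKcs −/− G1 and at 0% against 76.0% in CtIP A/A G2 replicate 1.

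Join structure was read from the gap or overlap of the bait and prey alignments. Inserted bases stood in 31 of 111 joins (27.9%) without DNA-PKcs and in 41 of 96 (42.7%) with it (exact p = 0.125, adjusted p = 0.188). At least 1 bp of homology stood in 49 of 111 joins (44.1%) without DNA-PKcs and in 40 of 96 (41.7%) with it, with adjusted exact p = 0.653. Run 1 differed by -27.4 percentage points for insertion and 20.5 for homology, and run 2 by -14.0 and 1.19. The share of direct joins was 27.9% in DNA-PKcs −/− libraries and 15.6% in the libraries with DNA-PKcs. The insertions had a median of 3 bp in both sets, with the longest at 11 bp without DNA-PKcs and 9 bp with it.

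The longest overlaps were at Igh V borders. In 9 joins the overlap was 10 bp or more, and 8 of them were at Igh V borders with DNA-PKcs, where the bait alignment ran past its first coding base into the heptamer and the bait loss was 0 bp. With the bait alignment ended at the first coding base, a setting added after the data were seen, all 9 kept an overlap, and inserted joins came to 28.8% without DNA-PKcs and 47.9% with it (exact p = 0.0139, adjusted p = 0.0417). Against the other genome joins of the same library, insertion differed by -5.70 percentage points and homology by -6.56, each with adjusted exact p = 0.184.

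Igk, the kappa light chain locus, took most antigen receptor joins in both sets, 847 of 958 without DNA-PKcs and 134 of 230 with it. Among all genome junctions without telomere repeat, Igk took 847 of 5097 without DNA-PKcs and 134 of 2574 with it. The share outside Igk therefore also depends on Igk. It is not the share of the 5 loci among genome junctions, where no difference passed (below). Over all 6 loci, 111 of 958 joins (11.6%) lay outside Igk without DNA-PKcs and 96 of 230 (41.7%) with it, a difference of -30.2 percentage points (exact p = 0.0139, adjusted p = 0.0417 over the 6 added measures). The double mutant had 7.55% and 18.5% in G2 and 9.57% in G1, and DNA-PKcs −/− had 21.7% and 23.1% in G2 and 10.3% in G1. CtIP A/A had 62.5% and 28.6% in G2 and 31.4% in G1, and wild type had 61.5% and 0% in G2 and 42.4% in G1. The wild-type G2 library at 0% held only 2 antigen receptor joins, and the 5 other libraries with DNA-PKcs lay above all 6 without it. Leaving out the G1 library of any genotype, either DNA-PKcs −/− G2 library or double mutant G2 replicate 2 put the adjusted exact p between 0.0556 and 0.133, with differences from -31.4 to -28.2 percentage points. With the G2 replicate number as a block the adjusted exact p was 0.075, which does not pass either. The exact p was then 0.0313, the smallest that block allows. Run 1 alone gave 11.8% without DNA-PKcs and 61.9% with it, and run 2 alone gave 11.6% without DNA-PKcs and 39.7% with it. In run 1 the libraries with DNA-PKcs held only 5 and 8 joins outside Igk, and 3 and 5 in it.

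**Figure D4:**
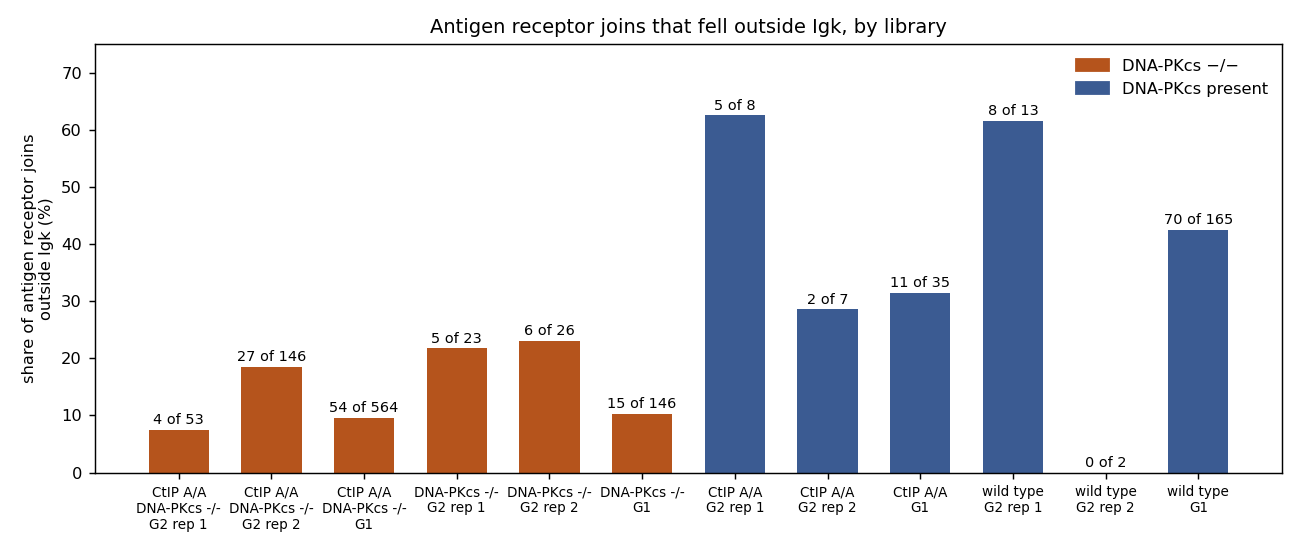
Share of joins into the 6 antigen receptor loci that fell outside Igk (vertical axis, percent) in each library, with the counts above the bars. The 6 DNA-PKcs −/− libraries lie between 7.55% and 23.1%, and 5 of 6 libraries with DNA-PKcs lie above them.

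As a share of all genome junctions without telomere repeat, no genotype or phase effect passed. The 5 loci took 0.778% and 3.25% in double mutant G2 and 2.77% in G1, and 1.49% and 1.37% in DNA-PKcs −/− G2 and 1.46% in G1. They took 3.88% and 1.05% in CtIP A/A G2 and 3.73% in G1. Wild type had 6.67% in G2 replicate 1, 0 of 95 junctions in G2 replicate 2, which allows up to 3.16%, and 4.01% in G1. The means were 1.85% ± 0.944 without DNA-PKcs and 3.22% ± 2.38 with it (SD, n = 6 each), and the groups overlapped. The difference averaged over strata was -1.47 percentage points, with an interval from -4.18 to 1.78 (exact p = 0.208, adjusted p = 0.625 over 6 shares). It was -4.14 within run 1 and 0.0148 within run 2. CtIP A/A minus CtIP wild type was 0.183 (interval -3.10 to 2.82) and G2 minus G1 was -0.683 (interval -3.35 to 2.15), both with adjusted exact p = 0.951.

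**Figure D5:**
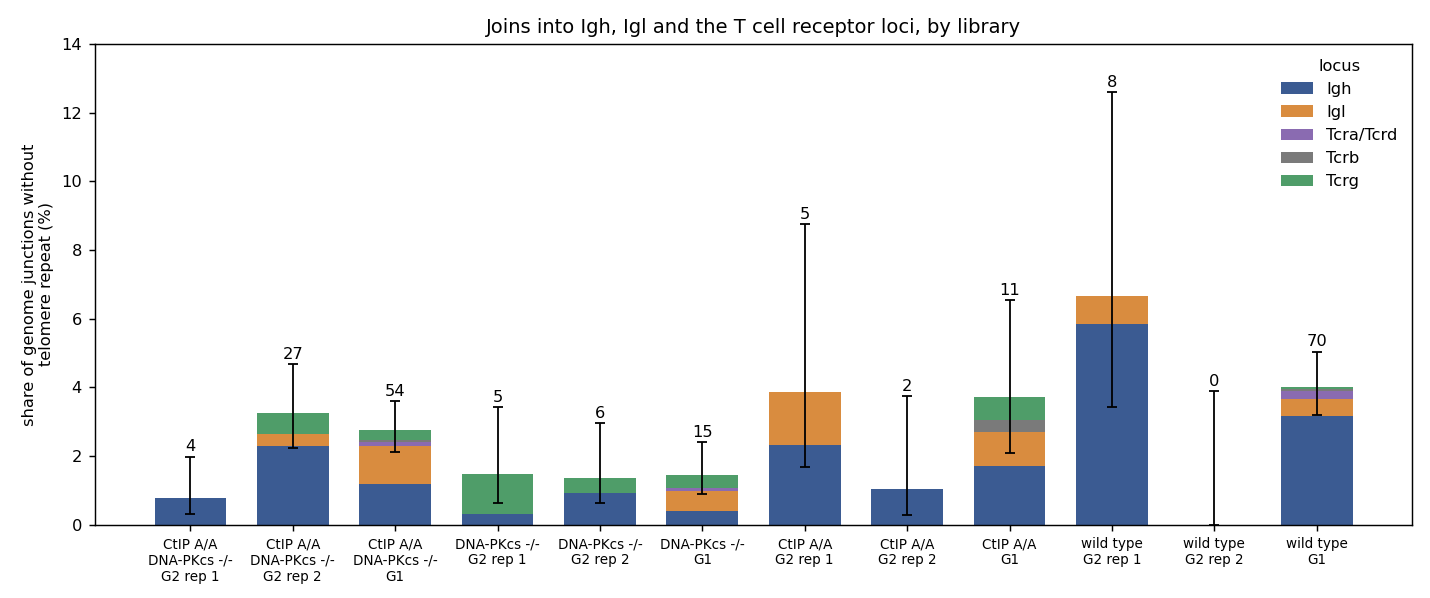
Share of genome junctions without telomere repeat that lay in the 5 loci (vertical axis, percent), stacked by locus, with 95% Wilson intervals of the total and the number of joins above each. The libraries run from 0 joins in wild-type G2 replicate 2 to 70 joins in wild-type G1, and the intervals of the smaller G2 libraries are wide.

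Igh held 55 joins without DNA-PKcs and 72 with it. The double mutant had 4 and 19 in G2 and 23 in G1, DNA-PKcs −/− had 1 and 4 in G2 and 4 in G1, CtIP A/A had 3 and 2 in G2 and 5 in G1, and wild type had 7 and 0 in G2 and 55 in G1. As a share of genome junctions Igh gave -1.44 percentage points for DNA-PKcs −/− minus DNA-PKcs present (adjusted exact p = 0.625), with -3.54 within run 1 and -0.282 within run 2. With DNA-PKcs, 67 Igh joins lay at V borders and 0 at J borders. Without it, 3 lay at V borders and 19 at J borders. Prey reads ran on the plus strand in 34 of 55 joins without DNA-PKcs and in 70 of 72 with it. For these minus-strand genes plus is the direction from a V border into the V segment, and 66 of the 72 were V coding joins. Without DNA-PKcs only 2 of the 55 were V coding joins. Another 17 of the 55 lay at repeats that resemble telomeres, described below, all on the plus strand.

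The V joins with DNA-PKcs covered 21 of 196 annotated Igh V borders. Beyond the midpoint of the V array, on the side away from the D and J segments, lay 47 of 67 (70.1%), where 41.3% of the annotated V borders lie. Ighv1-54 and Ighv8-7 hold 30 of those 47, and over the 19 other segments 17 of 37 joins (45.9%) lay there. By family, 40 were at Ighv1 segments and 18 at Ighv8 segments. Ighv1-54 took 15 joins, all with DNA-PKcs, namely 1 in CtIP A/A G1, 2 in wild-type G2 replicate 1 and 12 in wild-type G1. They lay from 1 bp outside to 16 bp inside the border, with 8 of 15 exactly on it at chr12:115193675, in 3 libraries and with 5 different bait ends. Another 3 lay 1 bp further out, at 115193674. Of the 15, 10 carried inserted bases and 5 homology.

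The inserted joins at chr12:115193675 are shown because they were placed at the same V position with different inserted bases. Inserted bases are in capitals, followed by the first 25 prey bases as read on the plus strand.
CtIP A/A G1, 2 bases inserted: GAtcttgcacagaaatagaccgcagag
Wild-type G2 replicate 1, 1 base inserted: Atcttgcacagaaacaaaccgcagag
Wild-type G1, 1 base inserted: Ctcttgcatagaaatagaccgcagag
Wild-type G1, 2 bases inserted: CTtcttgcacagaaatagaccgcagag
Wild-type G1, 4 bases inserted: CTTCtcttgcacagaaatagaccgcagag
Wild-type G1, 6 bases inserted: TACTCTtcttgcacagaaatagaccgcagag
Wild-type G1, 9 bases inserted: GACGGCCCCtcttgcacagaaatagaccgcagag
No 2 of the 7 shared the same inserted bases, and bait losses were 4 bp or less.

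Ighv8-7 is annotated as a pseudogene and also took 15 joins, all with DNA-PKcs, with 1 in CtIP A/A G2 replicate 1, 3 in wild-type G2 replicate 1 and 11 in wild-type G1. Its best heptamer lies 4 bp beyond the annotated border, and 6 joins at chr12:115258131 and 3 at 115258132 lay 5 and 4 bp outside that border, next to this heptamer. A further 3 joins, all in wild-type G1, lay at 115258139. Mismatches to mm10 ran from 0 to 9 per join at Ighv8-7 and from 1 to 5 at Ighv1-54. The label gives strain 129 and mm10 is another strain's genome, so V names are those of the nearest mm10 segment. Against the 129 scaffolds of the assembly, 5 of the 207 joins matched better than on the mm10 chromosomes, all 5 exactly. Another 6 matched another place as well as their own. This search finds only 129 sequence that the scaffolds hold, so it does not show that the V names are right. Mismatches to mm10 stood in 66 of 127 Igh joins (52.0%).

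Ighv1-11 took 7 joins, all in wild-type G1, from 3 bp outside to 4 bp inside its border. Ighv1-5 took 4, all in wild-type G1, and Ighv1-76 took 4, of which 1 was in wild-type G2 replicate 1 and 3 in wild-type G1, with 3 of them at chr12:115847880. Ighv1-64 took 3, all in wild-type G1. These V segments held 0 joins in the 6 DNA-PKcs −/− libraries.

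Ighj4 (chr12:113428514-113428567) was the most joined segment, with 17 joins, all in the double mutant. Of these, 14 were in G2 replicate 2 and 3 in G1, so 1 library holds most of them. The coding side held 12, from 113428534 to 113428567, on the minus strand and with a median of 10 bp into the segment. The signal side held 5, from 113428568 to 113428600, on the plus strand. Bait losses ran from 0 to 118 bp on the coding side and from 7 to 117 bp on the signal side, and 9 of the 17 carried inserted bases. No prey position held 3 or more of them. Without that G2 library the share of border joins at V segments still differed by -58.2 percentage points.

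Ighj3 took 2 coding joins, both in double mutant G1. At D segments, which have a signal with the short spacer on both sides, 6 of the 7 border joins were on the signal side. Ighd1-1 (chr12:113482170-113482192) held 4, from 8 to 24 bp outside the segment, with 3 in double mutant G1 and 1 in CtIP A/A G1. In all, D borders held 6 joins without DNA-PKcs and 1 with it.

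Some Igh joins were at repeats that resemble telomeres rather than at segments. They were 18 joins at 3 intergenic places, 17 without DNA-PKcs and 1 with it, and prey reads there were 26 to 38 bp long. They passed the telomere rule with fewer than 3 exact hexamers in the read. Over the whole genome, prey with 3 or more such hexamers numbered 14040 of 25165 junctions without DNA-PKcs and 211 of 5772 with it. The split of 17 against 1 is therefore not read as particular to Igh. The reference at these places is shown on the plus strand with exact hexamers in capitals, because it resembles the sequence that the telomere rule left out. The first (chr12:114970881-114970927) held 14 joins in 5 libraries, all without DNA-PKcs. The second (chr12:115257356-115257393) held 2, both without DNA-PKcs, and the third (chr12:115403652-115403684) held 2, of which 1 was in CtIP A/A G2 replicate 2.
Site 1: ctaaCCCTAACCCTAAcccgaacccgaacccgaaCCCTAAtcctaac
Site 2: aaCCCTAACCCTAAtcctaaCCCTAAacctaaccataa
Site 3: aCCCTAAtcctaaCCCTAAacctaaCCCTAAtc
At the first site 3 joins shared position 114970884, which is 829 bp from the Ighv1-45 border. With such prey left out, a setting added after the data were seen, the border share was 75.5% in DNA-PKcs −/− libraries and 93.7% in those with DNA-PKcs. Whether these reads came from chromosome ends was not tested.

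Igl held 31 joins without DNA-PKcs and 15 with it, and 42 of 46 (91.3%) lay within 50 bp of a border. The double mutant had 0 and 3 in G2 and 22 in G1, DNA-PKcs −/− had 0 and 0 in G2 and 6 in G1, CtIP A/A had 2 and 0 in G2 and 3 in G1, and wild type had 1 and 0 in G2 and 9 in G1. V borders took 10 joins without DNA-PKcs and 11 with it. The J borders took 17 without DNA-PKcs and 4 with it. These differences were not tested.

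Iglv1 (chr16:19085017-19085500), the most joined lambda V segment, took 13 coding joins. The 5 without DNA-PKcs, all in double mutant G1, lay 0 to 31 bp into the segment with a median of 11 bp, and lost 8 to 71 bp of the bait end. The 8 with it (5 in wild-type G1, 1 each in wild-type G2 replicate 1, CtIP A/A G2 replicate 1 and CtIP A/A G1) lay 0 to 4 bp inside, with bait losses of 0 to 4 bp. Position chr16:19085018 held 3, in 3 libraries, and all 3 were from cells with DNA-PKcs. Iglv2 (chr16:19260401-19260859) took 4 joins in double mutant G1, at 11 to 20 bp, 1 in CtIP A/A G2 replicate 1, at 4 bp, and 1 in CtIP A/A G1, at 0 bp. At Iglv1 the distances of the 2 sets overlapped. At Iglv2 they did not, but that sets 4 joins of 1 library against 2 joins, all from cells with CtIP A/A, and was not tested.

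Iglj3 (chr16:19067041-19067078) took 11 joins, 6 in double mutant G1, 2 in DNA-PKcs −/− G1 and 3 in wild-type G1. Of these, 4 were on the coding side, 4 to 27 bp inside, and 7 on the signal side, and 9 of the 11 had homology. The signal joins at 19067078 in double mutant G1 and at 19067087 in wild-type G1 each came as a pair with the same bait end. Each pair may be copies of 1 join. Iglj1 (chr16:19063225-19063262) took 6, with 1 in double mutant G2 replicate 2, 2 in double mutant G1, 2 in DNA-PKcs −/− G1 and 1 in wild-type G1. Its joins were 3 coding and 3 signal, and 5 of 6 were direct. Iglj2 (chr16:19200198-19200235) took 4, with 2 in double mutant G2 replicate 2, 1 in double mutant G1 and 1 in DNA-PKcs −/− G1. No Igl J coding end was joined in a library with DNA-PKcs.

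Tcrg held 21 joins without DNA-PKcs and 3 with it, in 7 libraries, and 17 of 24 lay within 50 bp of a border. The double mutant had 0 and 5 in G2 and 6 in G1, DNA-PKcs −/− had 4 and 2 in G2 and 4 in G1, CtIP A/A had 0 and 0 in G2 and 2 in G1, and wild type had 0 and 0 in G2 and 1 in G1. Trgj2 (chr13:19311245-19311304) took 8 joins, 4 in double mutant G2 replicate 2, 2 in double mutant G1 and 2 in DNA-PKcs −/− G1. Its 5 coding joins lay 2 to 42 bp inside the segment, and its 3 signal joins lay at 19311304, 19311306 and 19311316. Tcrg-V7 (chr13:19178024-19178492) took 3 coding joins, 16 bp inside in double mutant G1, and 3 bp inside and 1 bp outside in CtIP A/A G1. The remaining Tcrg join with DNA-PKcs, in wild-type G1, lay at chr13:19184896, which is 610 bp from the signal border of Tcrg-V4 and outside that gene's annotated bases.

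Tcra/Tcrd held 7 joins, 3 without DNA-PKcs and 4 with it, all on the minus strand. The 4 in wild-type G1 were V coding joins at chr14:53545524 and 53545526 in Trav13-1 and at 53560242 and 53560243 in Trav15-1-dv6-1, from 1 bp outside to 5 bp inside, with bait losses of 0 to 4 bp. Both Trav13-1 joins matched a 129 scaffold exactly. In double mutant G1, 1 join lay at 53795949, 14 bp inside a V segment annotated as B230359F08Rik and with 40 bp of bait lost, and 1 lay at 54153752, at -1253 bp from the Traj61 border (outside it), with 11 bases inserted. The DNA-PKcs −/− G1 join at 53605423 lay at -6013 bp from the Trav4-3 border (outside it).

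Tcrb held 3 joins and none at a border. In double mutant G1 the join was at chr6:40931410, at -39525 bp from the Trbv1 border, with an overlap of 10 bp, in CtIP A/A G1 at 41364301, and in wild-type G1 at 41087296, 992 bp from Trbv9. With 1 join in each of 3 libraries, no pattern can be read from Tcrb.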

How the data were processed

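Each line of the deposited tables is 1 HTGTS junction. The values used, as the columns are named per the file headers, are base positions of the bait and prey alignments and other alignment fields, with no normalization. Per the submitters' processing notes reads were aligned with Bowtie2 to mm10, and per the labels' protocols the substrate was added as an extra chromosome. Versions, the junction caller and its filters are not given in the sources used here. Depth is the number of junctions, 289 to 7068 per library. The libraries carry PCR copies and no molecular identifiers, so Wilson intervals at 95% and the limit of 3 counts for a count of 0 cover counting error only. Joins that shared position, strand and bait end with an earlier join of their library, whatever their inserted bases, were flagged as repeats. These were 1 of 111 without DNA-PKcs and 8 of 96 with it, and they are kept in the counts given.

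Loci, segments and borders came from GENCODE mouse M21, and signals from a scan of GRCm38.p6, the sequence behind mm10, within 10 bp of each border (at least 9 of 16 heptamer and nonamer bases). Prey reads were searched with blastn 2.17.0 for other places that match as well or better. Separately, in 201 of 201 ungapped joins the number of mismatches to mm10 equalled the number in the deposited alignment. Insertion is the gap and homology the overlap between the alignments on the read, and bait loss is counted from the first coding base of the bait, 1943. Telomere-like prey had 3 or more hexamers with up to 1 mismatch over 50% or more of its bases.

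Tests used scipy 1.17.1, pandas 2.3.3 and numpy 2.4.6 under Python 3.11.15, after a check of the permutation functions on simulated libraries, and figures were drawn with matplotlib 3.10.9. Labels were permuted exactly within strata, over 144 arrangements for genotype and 81 for phase, with Benjamini-Hochberg adjustment per family. The smallest p is 0.0139 for genotype, 0.0123 for phase and 0.00391 for the sign flip. With the replicate block the smallest p for genotype is 0.0313. No comparison ran over many features. Named in the text were all segments with 3 or more border joins, all positions with 3 or more joins, and each Tcra/Tcrd and Tcrb join. Ighj3 and the other segments with fewer joins, and the mention of single Tcrg joins, were chosen after their values were seen. The members and lists were chosen with earlier results of these data known. Sequencing run came from read names, with the first G2 replicates in run 1 and the rest in run 2. G2 replicate numbers pair no samples by label beyond that run. Alternatives changed repeats, filters, denominators, windows, homology minimum, library minimum, the run, the replicate block and each library. The 6 I-PpoI samples are not analysed here.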

Additional observations from a re-analysis of the deposited data

Results flagged for a closer look

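Prey reads with 3 or more telomere hexamers had been placed in Igh in 8 junctions, which the rule left out. They were 2 in double mutant G2 replicate 1, 1 in double mutant G2 replicate 2, 3 in double mutant G1, 1 in DNA-PKcs −/− G2 replicate 2 and 1 in DNA-PKcs −/− G1. The 6 libraries with DNA-PKcs held 0 of them. They are given because they lie outside the joins compared and the libraries with DNA-PKcs had none. Over the whole genome, such prey numbered 14040 junctions without DNA-PKcs and 211 with it, so a count of 0 among the 211 does not show a lower rate in Igh. Igl and the T cell receptor loci held 0 such junctions.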

How the results depend on the processing

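Over 314 combinations of result and alternative with a test, 273 kept direction and side of the threshold and 16 turned direction. Single runs gave 28 values with no test, of which 4 turned direction. All these turns were in differences that passed no test. The cause of each shift was not tested. For Igh, G2 minus G1 turned to -0.266 percentage points with substrate junctions in the denominator, -0.285 with telomere repeats in it, and -0.542 in run 2. CtIP A/A minus CtIP wild type turned to -1.75 for the 5 loci in run 1 and 0.437 for Igh in run 2, and the DNA-PKcs difference of the 5 loci to 0.0148 in run 2. Homology of 2 bp or more gave -7.55 for DNA-PKcs and, against other joins, -14.3 (adjusted exact p = 0.0176). Run 1 moved insertion to -27.4, homology to 20.5, border share to -66.7, and the share outside Igk to -50.1. Bait loss against other joins with prey of 30 bp or more and uncut 0 was -30.9 (adjusted exact p = 0.0938), over fewer libraries.

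Leaving out 1 library at a time gave, for DNA-PKcs, -2.30 to -0.633 (5 loci), -2.17 to -0.707 (Igh), -36.8 to -25.1 (border), -16.5 to -9.29 (insertion) and 0.389 to 4.05 (homology). It gave -0.650 to 1.02 (5 loci) and -0.973 to 0.486 (Igh) for CtIP, and -1.52 to 0.151 (5 loci) and -0.648 to 0.811 (Igh) for phase. Against other joins it gave -29.5 to -20.1 for bait loss. Insertion ran from -8.02 without CtIP A/A G2 replicate 1 (adjusted exact p = 0.0469) to -2.84, and homology from -9.73 without DNA-PKcs −/− G1 (adjusted exact p = 0.0117) to -4.35. The added measures gave 23.05 to 35.3 (signal side), -81.0 to -58.2 (V borders), -31.4 to -28.2 (outside Igk), 44.4 to 57.6 (bait loss), -69.0 to -60.9 (coding joins near the border) and -39.4 to -28.6 (long spacer). Where a stratum then lacked 1 genotype, the whole stratum was left out.

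The 6 added measures, the bait alignment ended at the first coding base (insertion -19.1, adjusted exact p = 0.0417) and the omission of telomere-like prey were chosen after seeing the data. A border window of 200 bp gave 27.9 for the signal side and -66.2 for V borders, each with adjusted exact p = 0.0417, as did V borders at -68.3 and coding joins near the border at -63.3 without double mutant G2 replicate 1. With the replicate block the 5-locus DNA-PKcs difference was -1.37 percentage points, and the adjusted exact p of the share outside Igk (-30.2) and of bait loss (53.6) was 0.075. Their exact p of 0.0313 was the smallest that the block allows. The block changed no call among the other 11 DNA-PKcs and CtIP differences it was run on. It was not run for phase, for the comparisons with other joins or with the bait alignment ended at the first coding base. The first G2 replicate stood -1.24, 0.0575, 1.41 and 3.33 percentage points from its genotype's G2 mean in double mutant, DNA-PKcs −/−, CtIP A/A and wild type, so equal numbers did not move together. Small libraries limit the shares, with 95 genome junctions in the smallest.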
